A study of Mus musculus with 7 samples.

Results

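The comparison described here sets CD8 T cells that had divided in hosts without lymphocytes against undivided naive cells of the same kind. Both are OT-I cells, which carry a transgenic T cell receptor for an ovalbumin peptide. All genes with a probe set annotated to 1 gene symbol were members, also those present only in the divided cells: 18194 genes in all, of which 8371 reached a log2 value of 5 on at least 1 array and were tested. It uses 3 of the 7 arrays, 1 of divided cells (the Rag array) and 2 of naive cells, and the divided cells have no replicate.

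OT-I donor cells of the Ly5.1 type were purified as CD8+ CD44lo cells from spleen and lymph nodes, stained with CFSE, a dye that thins out as cells divide, and injected intravenously. Rag-/- hosts, which make no T or B cells, drove lymphopenia-induced division, and CD8+ Ly5.1+ cells with 2 or more divisions were sorted from spleen after 5 days. The naive cells were sorted undivided from spleens of B6 hosts without antigen after 60 h. The remaining arrays hold 2 groups of cells that had divided at least 2 times after meeting antigen, both taken at 60 h: 2 arrays from sacral and pancreatic lymph nodes of RIP-OVAhi mice, a model of deletional tolerance, and 2 from spleens of OCS/LPS mice, which were primed with ovalbumin-coated splenocytes and lipopolysaccharide. All groups are labelled C57BL/6. Each array carries RNA pooled from 10 mice, or from 20 in RIP-OVAhi. Time after transfer (5 days against 60 h) and host differ together between Rag and naive cells, so their parts cannot be told apart, and the single receptor specificity limits the cells as a model of a mixed repertoire. In such sorted bulk samples, a lower share of cells that express a gene and less RNA per cell cannot be told apart.

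As background, naive T cells persist on weak signals from self peptides and on the cytokine interleukin-7. In hosts that lack lymphocytes these signals are not shared with other cells, and naive CD8 T cells divide slowly and take on surface markers and functions of memory cells without meeting their foreign antigen. Genes of mitosis, memory markers such as Cd44, cytokine receptors and genes induced through the antigen receptor are therefore the groups read first below.

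Values are log2 GCRMA levels, so a difference of 1 is 2-fold. A gene was called when limma's moderated test, fitted over all 7 arrays, gave a Benjamini-Hochberg adjusted p under 0.05; SE is the standard error from that fit, to which the Rag array adds no degree of freedom. The number of arrays limits the precision, and nothing in the labels says that the pools of a group came from separate experiments, so the p-values measure the spread between these arrays only. Array medians lay between 2.97 and 3.08, and the Rag array correlated with the naive arrays at r = 0.967 and 0.952 across tested genes, against 0.976 between the naive arrays. CD8 T cell markers had like levels: Cd8a read 12.77 and 12.59 in naive cells and 12.92 in Rag cells, Cd8b1 12.17 and 12.41 against 12.20, and Cd3e 10.18 and 10.28 against 10.16. Gapdh control probe sets at the 3' end exceeded those at the 5' end, a sign of RNA integrity and amplification, by 2.59 and 2.43 on the naive arrays, 2.21 on the Rag array and between 1.85 and 2.08 on the others. Its part in the results was not tested. Naive replicate 2 stood apart in sex-linked genes: Xist, the RNA that silences an X chromosome, read 12.73 there, 2.74 on naive replicate 1 and 2.67 on the Rag array.

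Among the 8371 tested genes, 191 were higher (2.28% of those tested) and 50 lower (0.597%) in Rag cells than in naive cells, so 79.3% of the calls were rises. Of these, 174 rises and 44 falls were at least 2-fold. The naive mean was under log2 5 for 94 of the genes that rose, and the Rag value was under it for 17 of those that fell, so their folds start or end near background, and 15 of the rises reached log2 5 on the Rag array only, so the filter itself favoured them. With no filter on dim genes limma called 195 rises and 70 falls, of which 97 and 29 were also called with it. With each array centred on its median over the tested genes the calls split into 203 rises and 93 falls (68.6% rises). Without naive replicate 2 there were 237 rises and 72 falls, and without naive replicate 1 there were 930 and 727. The fit borrows its spread from the other groups: without 1 RIP-OVAhi array it called 69 rises and 17 falls, and without 1 OCS/LPS array 87 and 20. From the 3 compared arrays alone limma called 0 genes in either direction, with 564 genes at an unadjusted p under 0.05.

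**Figure D1:**
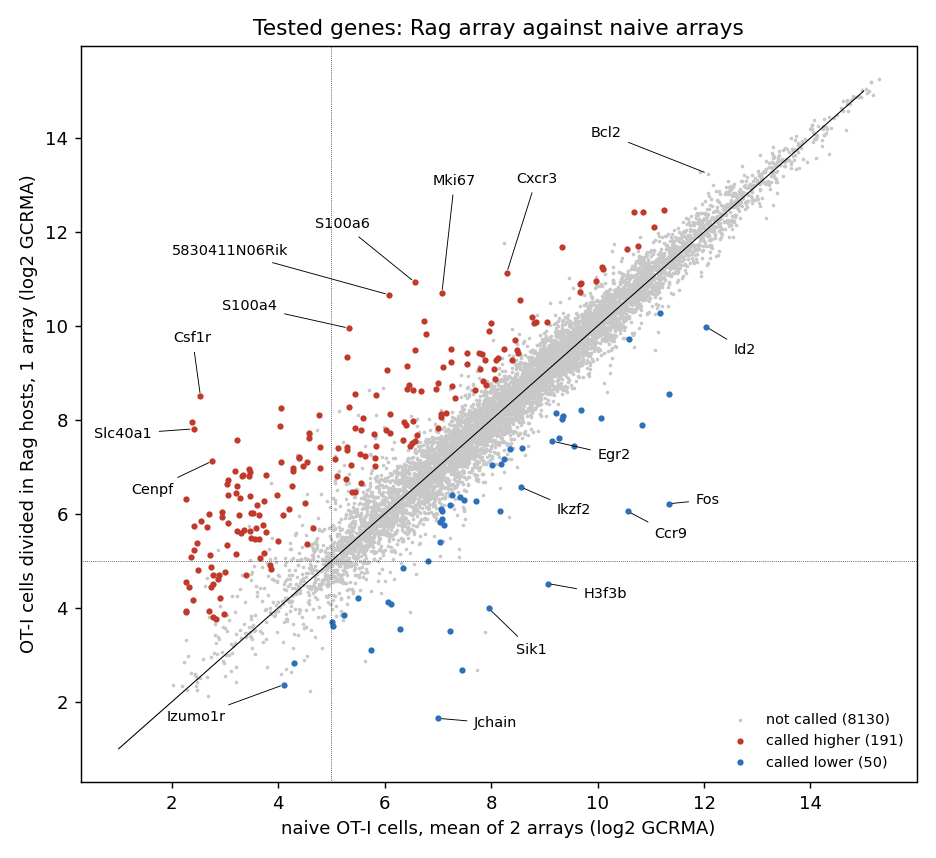
Level of each tested gene on the Rag array (vertical axis, log2 GCRMA) against the mean of the 2 naive arrays (horizontal axis, log2 GCRMA), with the 191 called rises in red, the 50 called falls in blue and the other genes in grey. The solid line marks equal levels and the dotted lines mark log2 5. Many red points lie left of log2 5 on the naive axis (94 of 191).

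Of all lists, mitotic genes held the most rises. Of 27 tested members of the mitotic list, 20 rose and 0 fell, with a median difference of 3.06 against 0.04 over all tested genes. Of all tested genes 2.28% rose. Members span the spindle, the kinetochore and the enzymes that drive and end mitosis. On the Rag array all 27 lay above both naive arrays and below all 4 arrays of antigen-divided cells, a position held by 12.5% of tested genes. Without either RIP-OVAhi array 12 were called, without either OCS/LPS array 14, and without naive replicate 2, 23.

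Cenpf, a kinetochore protein, read 2.68 and 2.83 in naive cells and 7.12 in Rag cells, a rise of 4.37 (SE 0.29, adjusted p = 0.00181). Mki67, which encodes the proliferation marker Ki-67, read 6.71 and 7.44 against 10.70 (rise 3.63, SE 0.32, adjusted p = 0.00465). Ccnb2, a mitotic cyclin, went from 3.76 and 4.31 to 7.87 (rise 3.83, SE 0.24, adjusted p = 0.00158). For each of these the Rag value stood well clear of both naive values. Kif11, a spindle motor, went from 3.32 and 3.34 to 6.83 (rise 3.50, SE 0.20, adjusted p = 0.00132). Aspm, a spindle pole protein, read 2.04 and 2.49 against 6.31 (rise 4.05, SE 0.28, adjusted p = 0.00205). Nusap1 and Tpx2, which organise spindle microtubules, rose by 4.20 and 3.67, but their naive values were 3.27 and 4.82, and 2.39 and 3.73. Both lost the call without any 1 RIP-OVAhi or OCS/LPS array (adjusted p up to 0.115 for each). Bub1, a spindle checkpoint kinase, read 3.17 and 2.90 against 6.64, while another of its probe sets differed by -0.15.

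The other 7 members did not pass the test, with differences from 0.45 to 3.08. Cdk1, the kinase that starts mitosis, read 3.65 and 5.06 against 7.25 (difference 2.89, SE 0.54, adjusted p = 0.058), and Ccna2, its cyclin A partner, 3.90 and 5.34 against 7.70 (adjusted p = 0.0545). Foxm1, a transcription factor of mitotic genes, read 4.94 and 4.10 against 5.04. The kinetochore gene Ndc80 differed by 0.45.

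The rise stopped short of the level in antigen-divided cells. Of the 27 members, 26 were lower in Rag cells than in both antigen-divided groups, in tests that put 7.31% of all genes there. Mki67 read 12.75 and 12.93 in RIP-OVAhi and 12.99 and 13.27 in OCS/LPS cells, which put Rag cells 2.14 (adjusted p = 0.00973) and 2.43 (adjusted p = 0.00672) lower. Kif11 was 2.74 and 3.25 lower than in these groups. Against naive cells the list's median was 5.77 in RIP-OVAhi and 6.36 in OCS/LPS cells, from comparisons that share the naive arrays.

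Mitotic genes share promoter elements that are known to be bound by the DREAM and NF-Y complexes: the cell cycle homology region (CHR), searched here as TTTGAA, and the CCAAT box, searched as CCAAT, both on either strand (TTCAAA and ATTGG on the other). In the 150 bases before the annotated start, from RefSeq (GRCm38.p6), 22 of the 27 mitotic genes had an entry. Of these, 6 (27.3%) held a CHR match and 17 (77.3%) a CCAAT match. Among the 6893 tested genes with an entry, 5.4% held a CHR match and 29.6% a CCAAT match, and 6 of 22 mitotic genes against 2.0% held both. Promoters are shown because these genes moved together: 5 of the 6 that hold both matches, and Ccnb2, which holds CCAAT matches alone. Capitals mark the matches, and each line runs 5′ to 3′ along the gene's strand.
Mki67: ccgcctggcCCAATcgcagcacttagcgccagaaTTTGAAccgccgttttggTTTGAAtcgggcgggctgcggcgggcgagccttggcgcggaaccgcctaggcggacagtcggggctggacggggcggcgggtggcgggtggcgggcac
Kif11: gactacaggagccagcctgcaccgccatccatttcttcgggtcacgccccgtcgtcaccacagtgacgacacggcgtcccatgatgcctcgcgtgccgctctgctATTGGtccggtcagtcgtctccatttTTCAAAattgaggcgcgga
Ube2c: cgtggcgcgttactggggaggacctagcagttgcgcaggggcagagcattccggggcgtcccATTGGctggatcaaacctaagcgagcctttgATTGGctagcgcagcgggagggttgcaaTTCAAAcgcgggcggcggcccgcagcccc
Top2a: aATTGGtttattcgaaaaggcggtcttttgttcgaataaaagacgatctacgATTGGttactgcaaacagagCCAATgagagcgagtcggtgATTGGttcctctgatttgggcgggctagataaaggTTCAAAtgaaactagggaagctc
Cdc20: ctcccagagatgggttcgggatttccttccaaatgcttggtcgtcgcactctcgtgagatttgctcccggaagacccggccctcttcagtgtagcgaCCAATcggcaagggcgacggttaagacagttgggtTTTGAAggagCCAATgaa
Ccnb2: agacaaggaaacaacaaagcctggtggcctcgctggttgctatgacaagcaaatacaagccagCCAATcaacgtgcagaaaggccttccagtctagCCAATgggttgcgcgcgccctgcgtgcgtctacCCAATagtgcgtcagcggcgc

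The windows lie at chr7:135716380-135716529 (minus strand), chr19:37376232-37376381 (plus strand), chr2:164769779-164769928 (plus strand), chr11:99024190-99024339 (minus strand), chr4:118437344-118437493 (minus strand) and chr9:70421555-70421704 (minus strand), each of 150 bases that end just before the gene's start. Mki67 has 2 CHR matches and 1 CCAAT match, and Top2a, the DNA-untangling enzyme of chromosome segregation, has 1 CHR match and 4 CCAAT matches. Kif11 holds 1 of each, Ube2c and Cdc20 1 CHR match and 2 CCAAT matches, and Ccnb2 3 CCAAT matches. Top2a read 6.49 and 7.07 in naive cells and 9.83 in Rag cells (rise 3.05, adjusted p = 0.00545). Ube2c, a ubiquitin-conjugating enzyme of mitotic exit, read 4.36 and 3.19 against 6.84 (rise 3.06, adjusted p = 0.0373), and Cdc20, an activator of the complex it works with, 7.63 and 7.93 against 9.42 (rise 1.64, adjusted p = 0.0214). The calls of Ube2c and Cdc20 were lost without any 1 antigen-divided array (adjusted p up to 0.138 and 0.108), and that of Ube2c also with the replicate number as a block. The Cdc20 call was also lost with the mean of its probe sets, and over the settings its difference ran from 0.70 to 1.79. A match is a description of letters and not a bound site.

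Genes of DNA synthesis changed less broadly. Of 24 tested members of the replication list, 6 rose and 0 fell (median 0.50): Rrm2, Cdc6, Tk1, Mcm10, Uhrf1 and Lig1. The share of all tested genes that rose was 2.28%. Rrm2, a subunit of the enzyme that makes deoxynucleotides, read 6.66 and 6.82 in naive cells and 10.10 in Rag cells (rise 3.36, SE 0.17, adjusted p = 0.000809). Cdc6, which loads the replicative helicase, read 4.14 and 5.01 against 7.72 (rise 3.14, SE 0.35, adjusted p = 0.0104). Tk1, thymidine kinase, went from 2.69 and 3.78 to 5.64 (rise 2.41, SE 0.41, adjusted p = 0.0448). Rag values lay above both naive arrays for 18 of the 24 members, against 38.1% of tested genes.

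Subunits of the helicase itself did not pass the test. Mcm2 read 9.02 and 8.81 in naive cells and 9.05 in Rag cells, and Mcm7 11.49 and 11.50 against 11.47 (difference -0.03, SE 0.14, adjusted p = 0.95). Pcna, the replication clamp, read 12.35 and 12.55 against 12.84 (difference 0.39, adjusted p = 0.318). In RIP-OVAhi and OCS/LPS cells Mcm7 read 12.65 to 12.85, and the Rag value was lower by 1.23 and 1.37 (adjusted p = 0.00415 and 0.00298). Of the 24 members, 22 were lower in Rag cells than in both antigen-divided groups, against 7.31% of all tested genes. Among replication promoters 12 of 20 (60.0%) held a CCAAT match and 2 (10.0%) a CHR match, with 0 holding both. Leaving out any 1 RIP-OVAhi or OCS/LPS array left 3 of the 6 rises; Cdc6, Tk1 and Lig1 were those lost.

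Regulators of the G1 phase included 3 rises and 0 falls among 16 tested members (median 0.47), where 2.28% of all tested genes rose. E2f2, an activator of S-phase genes, read 5.35 and 5.52 in naive cells and 8.55 in Rag cells (rise 3.11, SE 0.25, adjusted p = 0.00317). Ccne2, a cyclin that drives entry into S phase, read 4.53 and 4.63 against 7.62 (rise 3.04, SE 0.19, adjusted p = 0.00158). Cdkn2c, an inhibitor of CDK4 and CDK6, read 4.66 and 5.57 against 7.41 (rise 2.30, SE 0.36, adjusted p = 0.0333) and lost the call without any 1 RIP-OVAhi or OCS/LPS array (adjusted p up to 0.139). The D cyclins did not pass: Ccnd2 read 12.44 and 12.64 against 11.90, and Ccnd3 9.48 and 8.82 against 9.66. E2f2 differed by -0.79 from RIP-OVAhi cells (adjusted p = 0.0839) and was lower than in OCS/LPS cells by 1.21 (difference -1.21, adjusted p = 0.0268).

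**Figure D2:**
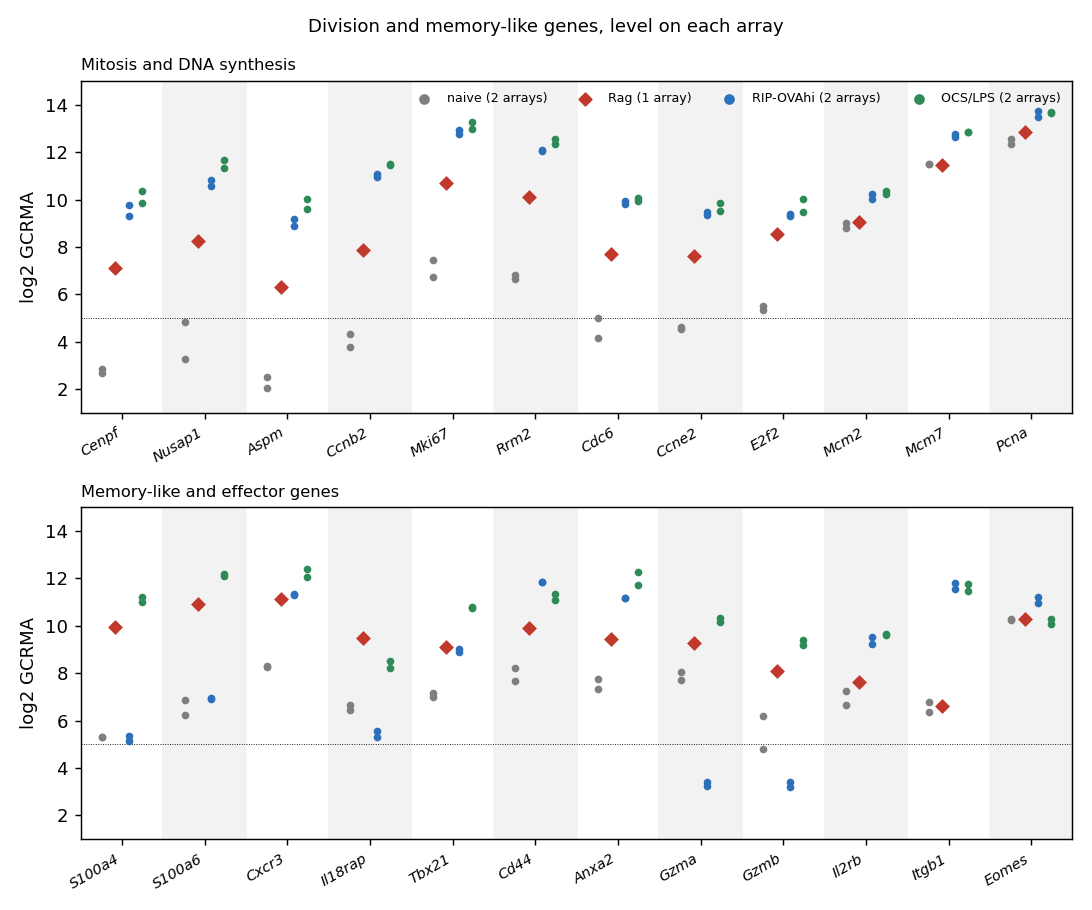
Level on each array (vertical axis, log2 GCRMA) of 12 genes of mitosis and DNA synthesis (top) and 12 memory-like and effector genes (bottom), with 1 point per array and the Rag array as a red diamond; the dotted line is log2 5. In the top panel the Rag value of Cenpf, 7.12, sits between the naive arrays (2.68 and 2.83) and the antigen-divided arrays, whereas Mcm7 in Rag cells (11.47) overlaps the naive level.

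The second group of rises held memory-like genes. Of 22 tested members of the memory-like and cytokine-driven list, 7 rose and 1 fell, with a median of 0.85. Among all tested genes 2.28% rose and 0.597% fell. The list's largest rises were S100a4 and S100a6, small calcium-binding proteins of memory and effector T cells. S100a4 read 5.32 and 5.33 in naive cells and 9.95 in Rag cells (rise 4.63, SE 0.17, adjusted p = 0.000269). S100a6 read 6.23 and 6.89 against 10.93 (rise 4.37, SE 0.27, adjusted p = 0.00158). The Rag values of both were at least 4 log2 units above the higher naive value. In RIP-OVAhi cells S100a4 read 5.16 and 5.34 and S100a6 6.96 and 6.90, while OCS/LPS cells read 11.21 and 10.99, and 12.17 and 12.10. Against the same naive arrays 10 members of the list were higher in RIP-OVAhi (median 0.56) and 14 in OCS/LPS cells (median 2.10). Set against both antigen-divided groups, 2 members were higher in Rag cells and 5 lower. Cd44 was among the lower, at 9.89 in Rag cells and 11.11 to 11.86 in antigen-divided cells.

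The list's rises included a chemokine receptor and a cytokine receptor chain. Cxcr3, a receptor that guides T cells to inflamed tissue, read 8.27 and 8.32 in naive cells and 11.13 in Rag cells (rise 2.84, SE 0.18, adjusted p = 0.00158). Il18rap, the accessory chain of the interleukin-18 receptor, read 6.47 and 6.65 against 9.48 (rise 2.92, SE 0.20, adjusted p = 0.00205). It was also higher than in RIP-OVAhi cells (by 4.04, adjusted p = 0.000344) and OCS/LPS cells (by 1.11, adjusted p = 0.0191). Il18r1, the binding chain, read 9.05 and 7.73 against 9.94, above both naive arrays, but did not pass the test (adjusted p = 0.30).

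Cd44, the memory marker that was low on the donor cells by their sort, read 7.67 and 8.23 in naive cells and 9.89 in Rag cells (rise 1.94, SE 0.25, adjusted p = 0.0194). Tbx21, which encodes T-bet, read 7.19 and 7.02 against 9.13 (rise 2.03, SE 0.15, adjusted p = 0.00264), close to the 8.91 and 9.04 of RIP-OVAhi cells and below the 10.81 and 10.76 of OCS/LPS cells. Eomes, the related factor of memory CD8 cells, read 10.30 and 10.25 against 10.31. Anxa2, a membrane-binding annexin, went from 7.32 and 7.77 to 9.42 (rise 1.88, adjusted p = 0.0303). Id2, an inhibitor of E-protein factors that effector cells use, was the member that fell, from 11.93 and 12.15 to 9.98 (fall -2.06, SE 0.17, adjusted p = 0.0035). Itgb1, the integrin chain that read 11.49 to 11.80 in antigen-divided cells, stayed at 6.63 against naive values of 6.78 and 6.37 (difference 0.06, adjusted p = 0.934). Without any 1 RIP-OVAhi or OCS/LPS array 5 of the 7 rises were called, and Cd44 and Anxa2 were those lost (adjusted p up to 0.105 and 0.13). The block ended the Anxa2 call as well, and so did the mean of its probe sets. Over the settings its difference ran from 0.58 to 2.11.

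Cytotoxic genes gave 1 call among 12 tested members, where 2.28% of all tested genes rose and 0.597% fell. Gzma, granzyme A, read 7.70 and 8.07 in naive cells and 9.27 in Rag cells (rise 1.38, SE 0.21, adjusted p = 0.0288). Gzmb, granzyme B, read 4.81 and 6.20 against 8.10 (difference 2.59, SE 0.53, adjusted p = 0.0709), above both naive arrays but with a naive spread too wide for a call. Both were near background in RIP-OVAhi cells, at 3.25 and 3.41 for Gzma and 3.41 and 3.21 for Gzmb. Prf1, perforin, read 8.41 and 7.90 against 7.77. The Gzma call was lost without any 1 RIP-OVAhi or OCS/LPS array (adjusted p up to 0.115). Of 4 tested NK receptors of CD8 cells, 0 were called in either direction.

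Cytokine signalling through the common gamma chain showed 1 rise among 13 tested members, where 2.28% of all tested genes rose. Pim1, a kinase induced by STAT5, read 8.24 and 7.76 in naive cells and 10.05 in Rag cells (rise 2.06, SE 0.24, adjusted p = 0.0137), and it was higher than in RIP-OVAhi cells by 2.06 and in OCS/LPS cells by 1.53. Socs3, an inhibitor of cytokine signalling, read 10.42 and 10.15 against 11.25 (difference 0.96, SE 0.51, adjusted p = 0.399), while antigen-divided cells read 5.56 to 7.82. Il7r, the interleukin-7 receptor chain, read 12.94 and 12.78 against 13.01, and was 3.52 and 2.54 higher than in RIP-OVAhi and OCS/LPS cells (adjusted p = 0.000504 and 0.00138). Il2rb, which serves interleukin-2 and interleukin-15, read 6.64 and 7.23 against 7.61 (adjusted p = 0.271) and 9.22 to 9.66 in antigen-divided cells. Cish, a STAT5 target, was not tested because no array reached log2 5, but read 4.95 in Rag cells against 3.16 and 3.16 in naive cells. The Pim1 call was lost without any 1 RIP-OVAhi or OCS/LPS array (adjusted p up to 0.0713).

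Of the BCL2 family of survival and death proteins, 0 of 10 tested members were called. The shares among all tested genes were 2.28% higher and 0.597% lower, at which 10 genes would hold few calls. Bcl2 itself read 12.26 and 11.88 in naive cells and 13.24 in Rag cells (difference 1.17, SE 0.26, adjusted p = 0.0931). It was higher than in both antigen-divided groups, by 2.92 (adjusted p = 0.00206) and 3.92 (adjusted p = 0.00074). Bcl2l11, which encodes the death-promoting BIM, read 9.66 and 9.17 against 9.58, and Mcl1 12.58 and 12.15 against 12.55.

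Falls included genes that antigen-receptor signals induce. Of 20 tested antigen-receptor response genes, 5 fell and 1 rose, with a median of -0.65, against 0.597% and 2.28% of all tested genes. On the Rag array 18 of the 20 read below both naive arrays, as did 29.6% of all tested genes. Egr2, a transcription factor induced by receptor signals, read 9.15 and 9.15 in naive cells and 7.55 in Rag cells (fall -1.61, SE 0.19, adjusted p = 0.0143). Nr4a3, an orphan nuclear receptor of the same kind of response, read 6.82 and 7.28 against 5.39 (fall -1.66, SE 0.26, adjusted p = 0.0327). Nr4a2 read 4.31 and 4.30 against 2.82, all below log2 5, and Nab2, a partner of EGR factors, 7.08 and 7.06 against 5.89. Egr1 read 9.27 and 9.15 against 8.15 (fall -1.06, SE 0.14, adjusted p = 0.022). In each of the 5 the Rag value lay outside the naive pair by more than the pair's own gap.

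The number of calls varied with the setting. With the replicate number as a block 2 of the 5 falls were called, Egr1 and Egr2, without naive replicate 2 the list had 3 falls, without either RIP-OVAhi array 3, Egr2 and Nr4a2 among them, without either OCS/LPS array 0, without naive replicate 1 there were 10 and with centred arrays 7. Egr3 and Cd83 read lower too but did not pass: Egr3 10.21 and 10.15 against 8.60 (adjusted p = 0.0545), and Cd83 4.35 and 5.27 against 3.15 (adjusted p = 0.128). Of the 20 members, 8 were lower in Rag cells than in both antigen-divided groups, among them Egr1, Egr2, Nr4a2 and Nr4a3. The same tests put 7.31% of all genes there. Egr1, for instance, was 1.33 and 1.01 lower than in RIP-OVAhi and OCS/LPS cells. Irf8, an interferon regulatory factor, was the member that rose, from 5.86 and 6.33 to 7.72 (rise 1.62, adjusted p = 0.0328), a call lost without any 1 antigen-divided array (adjusted p up to 0.121). Irf4, which receptor signals induce in proportion to their strength, was near background in naive (3.09 and 2.28) and Rag cells (2.13) and read 8.32 to 8.57 in antigen-divided cells.

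Immediate early genes, switched on within minutes of a stimulus, included falls as well. Of 12 tested members of that list 3 fell and 0 rose (median -0.88), and 10 read below both naive arrays. Among all tested genes 0.597% were called lower and 29.6% read below both naive arrays. Fos, a subunit of AP-1, read 11.48 and 11.19 in naive cells and 6.21 in Rag cells (fall -5.12, SE 0.46, adjusted p = 0.00535). It read 10.23 to 12.85 on the antigen-divided arrays, so the Rag array stood alone. Dusp2, a phosphatase that acts on MAP kinases, read 9.35 and 9.21 against 7.62 (fall -1.66, SE 0.16, adjusted p = 0.00638), and Ier2 10.62 and 10.57 against 9.73 (fall -0.87, adjusted p = 0.0472). The Ier2 call was lost with the replicate block, without naive replicate 2 and without any 1 antigen-divided array (adjusted p up to 0.148). Jun, the partner of Fos, read 8.02 and 6.76 against 5.09 (difference -2.30, SE 0.61, adjusted p = 0.134), and Dusp1 7.18 and 7.60 against 5.24 (adjusted p = 0.0679). Sik1, a kinase gene switched on by cAMP signals and in no list, read 7.96 and 7.96 against 3.99 (fall -3.97, SE 0.26, adjusted p = 0.00182).

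Of 8 tested inhibitory receptors, 0 were called. With 2.28% of all tested genes called higher and 0.597% lower, so small a list would hold few calls. Ctla4, which competes with CD28, read 2.64 and 2.29 in naive cells and 2.26 in Rag cells, all near background, against 9.94 to 10.33 in antigen-divided cells. Pdcd1, which encodes PD-1, read 4.08 and 4.40 against 4.15, with 7.47 to 8.49 in antigen-divided cells. The Rag cells were 7.87 and 7.82 lower for Ctla4 and 4.29 and 3.37 lower for Pdcd1 than RIP-OVAhi and OCS/LPS cells. The receptor complex and its proximal kinases gave 0 calls among 16 tested members, again few genes at those shares, with a median of 0.25.

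Genes that mark resting naive cells gave 1 call. Of 23 tested members 0 rose and 1 fell (4.35%, against 0.597% of all tested genes), with a median of -0.11. Against the same naive arrays 13 fell in RIP-OVAhi cells (median -0.66) and 15 in OCS/LPS cells (median -0.73). Over all 8371 tested genes 50 fell in Rag, 960 in RIP-OVAhi and 1014 in OCS/LPS cells, so the counts of calls are not alike in power. Klf2, a factor that maintains quiescence and recirculation, read 12.29 and 12.34 in naive cells and 12.09 in Rag cells, and S1pr1, the receptor for lymph node exit, 11.34 and 10.78 against 10.86. Igfbp4 read 12.60 and 12.60 against 12.16, and was 4.58 and 4.13 higher than in antigen-divided cells. Txnip, a brake on glucose uptake, read 12.25 and 11.81 against 12.65, and was 1.85 and 1.46 higher than in these groups. In all, 6 of the 23 were higher in Rag cells than in both antigen-divided groups, in tests that put 4.4% of all genes there: Il7r, Tob1, Igfbp4, Il6ra, Txnip and Klf3. Ccr7, the lymph node homing receptor, read 12.02 and 12.10 against 11.29 (difference -0.77, SE 0.17, adjusted p = 0.0909).

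The member that fell was Ccr9, a receptor for homing to the small intestine. It read 10.51 and 10.62 in naive cells and 6.06 in Rag cells (fall -4.51, SE 0.69, adjusted p = 0.0317), with 7.80 and 7.92 in RIP-OVAhi and 2.98 and 4.86 in OCS/LPS cells. The call was lost without naive replicate 2 and without either RIP-OVAhi array (adjusted p up to 0.136). Of 12 tested homing receptors and integrins Cxcr3 alone was called, where 2.28% of all tested genes rose and 0.597% fell. Cxcr6 read 10.81 and 11.35 against 9.48 (adjusted p = 0.0652) and Cxcr4 8.30 and 8.43 against 7.17 (adjusted p = 0.0788), both below the naive pair.

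**Figure D3:**
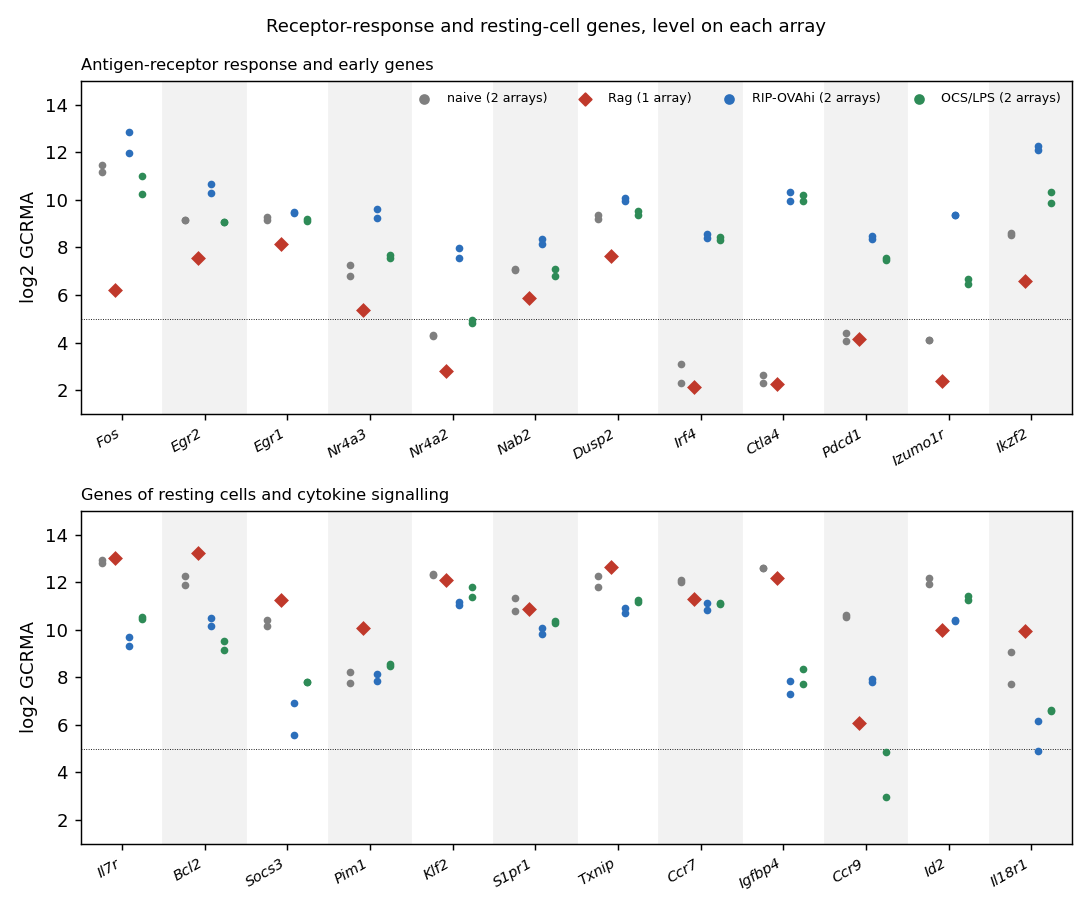
Level on each array (vertical axis, log2 GCRMA) of 12 receptor-response, early and inhibitory genes (top) and 12 genes of resting cells and cytokine signalling (bottom), with 1 point per array and the Rag array as a red diamond; the dotted line is log2 5. Fos on the Rag array (6.21) lies under all 6 other arrays, and Il7r (13.01) and Bcl2 (13.24) lie with or above the naive arrays and above the antigen-divided ones.

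Lists of growth and metabolism gave few or 0 calls. There were 0 of 23 for ribosome biogenesis and Myc genes, 0 of 14 for glycolysis, 0 of 29 for oxidative phosphorylation, 0 of 18 for sterol synthesis, 0 of 16 for endoplasmic reticulum folding and 0 of 9 for cytosolic heat shock proteins. At an unadjusted p under 0.05 limma put 1514 of all tested genes. Of all tested genes 2.28% were called higher and 0.597% lower, so lists of this size would hold few calls at those shares. The medians of these lists ran from -0.21 (sterol synthesis) to 0.18 (glycolysis). Myc, a driver of growth after activation, read 10.01 and 10.48 in naive cells and 9.49 in Rag cells (adjusted p = 0.166). Of 24 tested interferon response genes 1 rose, Oas3, from 6.43 and 6.51 to 7.45 (adjusted p = 0.0476), a call lost without naive replicate 2, without any 1 antigen-divided array (adjusted p up to 0.161) and with the replicate block. Oasl2, a related gene, read 7.27 and 7.25 against 7.46, where antigen-divided cells read 2.85 to 5.30. Quantile normalization within GCRMA makes the arrays' distributions alike, so a shift shared by most genes would not show.

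**Figure D4:**
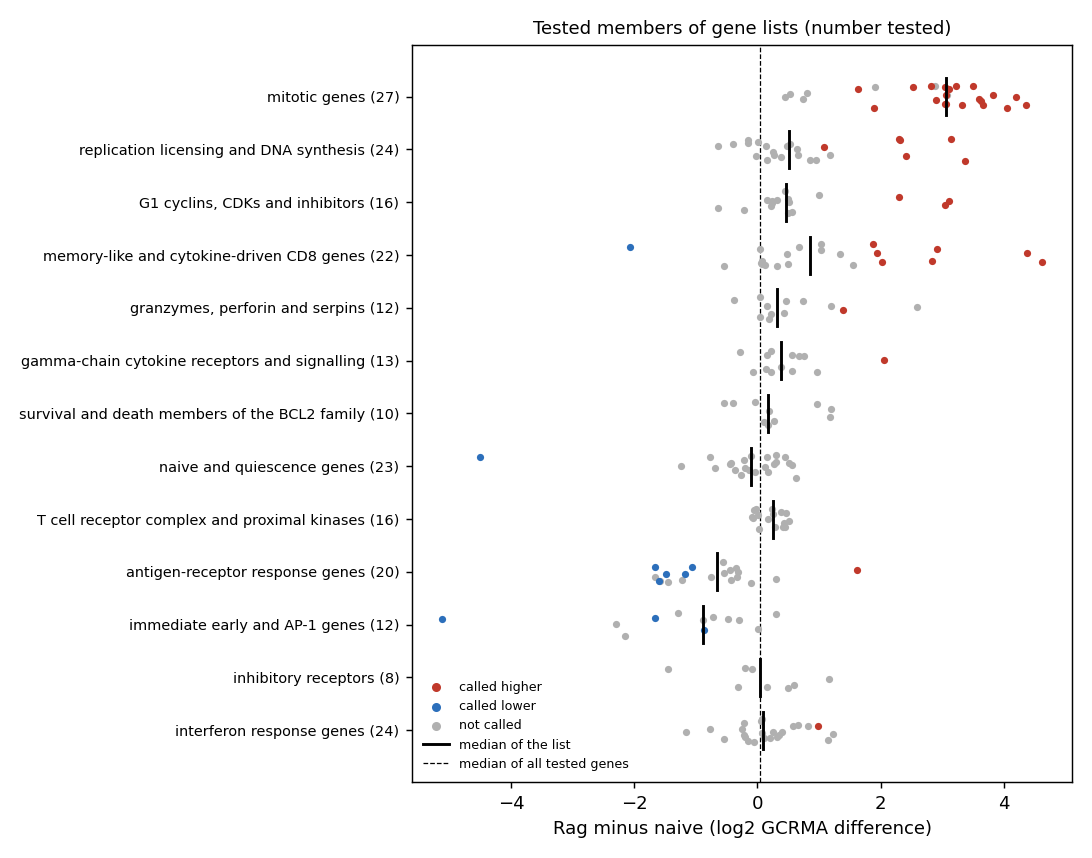
Rag minus naive difference (horizontal axis, log2 GCRMA) of each tested member of 13 gene lists, with the number tested in brackets, called rises in red, called falls in blue and other members in grey; the thick bar is the median of the list and the dashed line the median of all tested genes, 0.04. Mitotic genes (median 3.06) lie to the right and immediate early genes (median -0.88) to the left.

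Of the 191 rises 48 were members of a list and 143 were not, and of the 50 falls 11 were members and 39 were not. Among the unlisted rises, Ncapg, a condensin subunit chosen after its values were seen, read 2.90 and 4.04 against 6.89. Depdc1a, among the 15 largest rises, read 3.25 and 3.37 in naive cells and 6.80 in Rag cells (rise 3.49, SE 0.21, adjusted p = 0.00132). Plek, a protein kinase C substrate of blood cells also chosen after its values were seen, read 6.19 and 5.90 against 9.07 (rise 3.03, adjusted p = 0.00538). Nt5e, which encodes the memory-associated surface enzyme CD73, read 5.07 and 5.14 against 6.80 (rise 1.70, adjusted p = 0.0177), and the cytokine receptor chains Il12rb1 and Il10ra rose by 2.01 and 2.12. These were likewise picked after their values were seen. Ncapg lost its call without any 1 antigen-divided array (adjusted p up to 0.113) and Nt5e without either RIP-OVAhi array (adjusted p up to 0.0841).

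Some genes read higher in Rag cells than in both antigen-divided groups, whether or not they were called against naive cells. 5830411N06Rik read 5.57 and 6.59 in naive cells and 10.66 in Rag cells (rise 4.58, SE 0.39, adjusted p = 0.00417) against 4.14 to 4.15 on all 4 antigen-divided arrays. Cd163l1, a scavenger receptor family member, read 7.03 and 6.08 against 8.61 (adjusted p = 0.103), and was 5.86 and 3.62 higher than in RIP-OVAhi and OCS/LPS cells. Apol11b, an apolipoprotein L gene, read 5.29 on both naive arrays and 9.34 on the Rag array (rise 4.05, SE 0.15, adjusted p = 0.000269), with 4.31 to 5.39 elsewhere. Abca1, a cholesterol exporter, read 7.95 and 8.23 against 9.32 (adjusted p = 0.0541), and 3.43 to 6.12 in antigen-divided cells.

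Among the largest falls outside the lists, Cnn3, an actin-binding calponin, read 10.79 and 10.87 in naive cells and 7.88 in Rag cells (fall -2.95, SE 0.15, adjusted p = 0.000818), near the 7.31 to 8.49 of antigen-divided cells. Rgcc, a regulator of the cell cycle, read 11.06 and 11.64 against 8.55 (fall -2.79, SE 0.30, adjusted p = 0.00914). Hacd1, an enzyme of fatty acid elongation, read 7.01 and 7.44 against 3.50 (fall -3.72, SE 0.37, adjusted p = 0.00713). Rgcc and Hacd1 lost the call without either RIP-OVAhi array (adjusted p up to 0.0553 for each). H3f3b, a gene for the histone variant H3.3, showed -4.55 (9.11 and 9.02 against 4.52) on the single probe set annotated to it alone. On the 5 probe sets that the annotation shares between it and other histone genes the difference ran from -0.22 to 0.15, so the probe sets disagree.

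Set against both antigen-divided groups at once, 368 genes were higher in Rag cells (4.4%) and 612 lower (7.31%). By the mean of both differences, the genes furthest below were Ctla4, Irf4, Nrp1 and Izumo1r. Nrp1, a semaphorin co-receptor, read 4.69 and 5.33 in naive cells, 3.97 in Rag cells and 9.99 to 10.48 in antigen-divided cells (6.27 and 6.02 lower). By the same measure the 8 furthest above were 5830411N06Rik, Csf1r, Drc1, Slc40a1, Cd163l1, Mpeg1, Abca1 and Apol11b; of these Csf1r, Drc1, Slc40a1 and Mpeg1 passed the filter only through the Rag array and are described below without a test. These counts fell without any 1 antigen-divided array, to between 94 and 100 higher and between 183 and 294 lower, and rose to 800 and 1130 without either naive array. Rag cells were taken at 5 days and the others at 60 h, and the hosts differ. RIP-OVAhi cells also came from lymph nodes and not from spleen. Time, host, stimulus and, for RIP-OVAhi, tissue cannot be told apart here.

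Of the 191 rises over naive cells, 136 were also called higher in both antigen-divided groups and 26 in neither; of the 50 falls, 21 were called lower in both and 11 in neither. For scale, limma called 1478 of the 8371 tested genes higher and 960 lower in RIP-OVAhi than in naive cells. In OCS/LPS cells it called 1690 higher and 1014 lower. Calls in Rag cells and in these groups are not alike in power. All of these counts share the naive arrays. Against naive cells 12 genes were called in one direction in Rag cells and in the other in both antigen-divided groups. Among them B430306N03Rik passed the filter only through the Rag array. Ikzf2, which encodes the factor Helios, read 8.59 and 8.52 in naive cells, 6.57 in Rag cells (fall -1.99, SE 0.23, adjusted p = 0.0117) and 9.86 to 12.28 in antigen-divided cells. Izumo1r, which encodes folate receptor 4, read 4.10 and 4.11, then 2.37 in Rag cells (fall -1.74, adjusted p = 0.00411) and 6.48 to 9.38. In the other direction Tec, a non-receptor tyrosine kinase, read 8.68 and 8.94 in naive cells, 10.05 in Rag cells (rise 1.24, adjusted p = 0.0232) and 7.51 to 7.84 in antigen-divided cells. Against naive cells the Ikzf2 call was lost without either RIP-OVAhi array (adjusted p up to 0.0669), and the Tec call without any 1 antigen-divided array and with the replicate block (adjusted p up to 0.11).

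The Rag array also carried transcripts of other cell types. In the macrophage and monocyte list, 20 members were on the array, and the Rag array read highest of all 7 for 13 of them, above both naive arrays for 15 and below both for 3. Of the 10 members that passed the filter, 5 did so only through the Rag array (Csf1r, Slc40a1, Mpeg1, Mrc1 and Adgre1), so they are given by their values, with no test. Csf1r, the receptor that macrophages need to survive, read 2.56 and 2.52 in naive cells, 8.51 in Rag cells and 2.44 to 2.50 on the antigen-divided arrays. Slc40a1, the iron exporter of macrophages that recycle red cells, read 2.39 and 2.42 against 7.81, and Mpeg1, a pore-forming protein of phagocytes, 3.19 and 3.25 against 7.58. Mrc1, the mannose receptor, read 3.03 and 3.09 against 6.40, and Adgre1, which encodes F4/80, 3.55 and 3.59 against 5.46. Of the other 5, C1qb alone was called. C1qb, a complement component, read 4.45 and 5.13 against 7.42 (rise 2.63, SE 0.33, adjusted p = 0.0167), a call lost without any 1 antigen-divided array (adjusted p up to 0.0912).

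Tyrobp, also on the NK cell list, read 4.69 and 5.61 in naive cells and 6.17 in Rag cells, and 3.77 to 5.23 in antigen-divided cells. Several further members had like levels in both or were dim. Ctss, a lysosomal protease, read 13.42 and 13.42 against 13.44, and Lyz1, lysozyme, 7.94 and 8.67 against 8.46. Dim members, under log2 5 on every array, were not tested. Among these Cd5l, a macrophage-secreted protein, read 2.19 and 2.22 in naive cells and 4.94 in Rag cells, C1qc 1.89 and 1.91 against 4.36, and C1qa 2.05 and 2.08 against 3.52. Vcam1 (4.83), Hmox1 (3.69), Cd68 (4.04) and Fcer1g (3.44) also read above both naive arrays on the Rag array, and Marco, Fcgr1 and Ms4a7 below both. The log2 of the list's summed level was 13.48 and 13.51 in naive cells, 13.64 in Rag cells, 13.64 to 13.70 in RIP-OVAhi and 12.91 to 13.08 in OCS/LPS cells, most of it Ctss. Leaving out Ctss it was 8.78 and 9.40 in naive cells, 10.74 in Rag cells, 7.26 to 7.40 in RIP-OVAhi and 8.53 to 9.04 in OCS/LPS cells.

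Red cell genes rose in part: of 4 tested members 2 rose, Slc4a1, the anion exchanger of the red cell membrane, from 5.30 and 5.34 to 8.28 (rise 2.95, SE 0.18, adjusted p = 0.00132), and Car2, a carbonic anhydrase, from 6.51 and 6.33 to 8.67 (rise 2.25, adjusted p = 0.0243). Alas2, the first enzyme of haem synthesis in red cells, read 4.74 and 2.99 against 6.65 and passed the filter only through the Rag array, while Hba-a1, a globin gene, read 2.44 on the Rag array and Klf1, a red cell transcription factor, 2.02. The platelet gene Ppbp, the other tested member, went the other way, from 5.13 and 6.13 to 2.87 (difference -2.76). Of the list's 10 members on the array, 4 read above both naive arrays on the Rag array and 5 below both. The log2 summed level of that list was 7.86 and 7.90 in naive cells, 9.75 in Rag cells, 7.36 to 7.78 in RIP-OVAhi and 8.27 to 8.56 in OCS/LPS cells. Leaving out Car2 it was 7.15 and 7.31 in naive, 8.82 in Rag, 6.21 to 6.29 in RIP-OVAhi and 6.87 to 6.88 in OCS/LPS cells. Car2 also read 7.58 and 8.02 in OCS/LPS cells. The Car2 call was lost without naive replicate 2 and without any 1 antigen-divided array (adjusted p up to 0.0796).

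Of 5 tested genes of the MHC class II and dendritic cell list 0 were called; H2-Aa read 6.50 and 6.69 in naive cells and 7.63 in Rag cells, and Cd74 5.33 and 4.82 against 7.23 (adjusted p = 0.0732). The dendritic cell genes Flt3, Xcr1 and Itgax were near background on the Rag array (2.42, 1.93 and 2.26). Transcripts of antibody-secreting cells went the other way. Jchain, the joining chain of antibodies, read 7.07 and 6.93 in naive cells, 1.65 in Rag cells (fall -5.35, SE 0.31, adjusted p = 0.00132), 1.65 and 2.28 in RIP-OVAhi and 8.01 and 8.45 in OCS/LPS cells, and all 5 tested B cell and plasma cell genes read below both naive arrays. The antibody segment gene Igkv8-30 read 7.08 and 7.82 against 2.69, and its call was lost without naive replicate 2 and without either OCS/LPS array (adjusted p up to 0.0622). Neither the CD4 and regulatory T cell list (0 of 5 members reached log2 5) nor the stroma and neutrophil lists (1 tested member each) gave a call, and of 2 tested NK cell genes 0 were called.

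**Figure D5:**
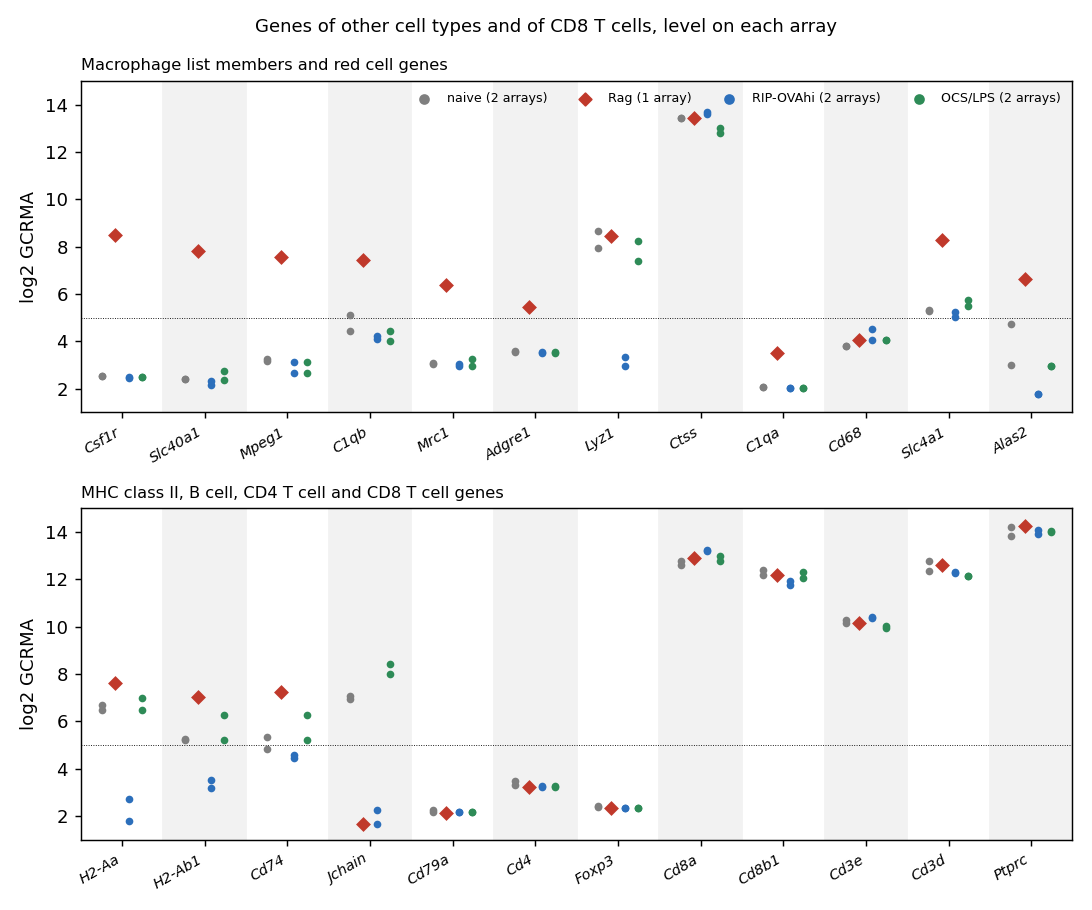
Level on each array (vertical axis, log2 GCRMA) of 12 macrophage and red cell genes (top) and of MHC class II, B cell, CD4 and CD8 T cell genes (bottom), with 1 point per array and the Rag array as a red diamond; the dotted line is log2 5. Csf1r in Rag cells (8.51) lies far above the other arrays while Cd8a and Cd3e lie together on all 7.

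These levels belong beside the gene groups above, since cells were sorted as CD8+ Ly5.1+. On the single Rag array 13 of 20 macrophage and 3 of 10 red cell and platelet transcripts read highest of all 7 arrays. Their part in the rises of the memory-like and mitotic lists was not tested. Csf1r, Slc40a1 and Mpeg1 stayed between 2.17 and 3.13 on the antigen-divided arrays.

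Genes present on the Rag array alone, at log2 5 or more there and under it on the other 6, numbered 32. They were chosen by these values, so they carry no test here. The levels ran from 5.00 for Homer1 to 8.51 for Csf1r. Besides Csf1r, Slc40a1, Mpeg1 and Mrc1 the 10 highest were Drc1, Adgre4, Alas2, Aqp9, Klf11 and Hpgd. Drc1, a gene of the ciliary dynein regulatory complex, read 7.95 in Rag cells and between 2.31 and 2.42 on the other 6 arrays. Adgre4, a receptor of the F4/80 family, read 6.92 against 3.05 to 3.20, and Hpgd, an enzyme that breaks down prostaglandins, 5.85 against 2.46 to 2.62. Klf11, a Krüppel-like transcription factor, read 6.59 against 4.18 to 4.84. Cd163, a haemoglobin scavenger receptor of macrophages, read 5.08 and Prg2, an eosinophil granule protein, 5.37, against at most 2.37 and 2.50 elsewhere. Just inside the limit stood Homer1 and Mapk7 (5.00 and 5.01). Just outside were Cish (4.95) and Cd5l (4.94) on the Rag array, and Trp53rka, which read 5.19 in Rag cells but 5.01 on naive replicate 2.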

How the data were processed

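The authors' deposited values are log2 levels from GCRMA for 45101 probe sets of 7 Affymetrix mouse arrays, per the submitters' processing notes; its version and parameters are not given in the sources used here. Per the labels' protocols, 100 ng of total RNA went through a kit with 2 cycles of amplification. No further normalization was applied to them. Probe sets were named from the platform annotation: 34958 had 1 symbol, 932 several and 9211 none, and 34754 of the first kind matched a RefSeq gene of GRCm38.p6. Where a gene had several such probe sets, the one with the highest average level stood for it. This left 18194 genes, and 8371 that reached log2 5 on any array were tested.

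Group means of all 7 arrays were fitted together with lmFit and eBayes of limma (version 3.58.1, R version 4.3.3), with two-sided tests and Benjamini-Hochberg adjustment. It had 3 residual degrees of freedom and a prior of 2.84. The spread of the 3 duplicated groups was pooled, although the naive arrays differed more than the others, and was taken to hold for the Rag array. The code was tested on simulated data. Named genes were the 15 largest called rises and falls (without antibody and receptor segments, sex-linked genes and other-cell lists), the 10 highest genes present on the Rag array alone, the 8 largest differences from both antigen-divided groups in each direction, up to 6 members per list with called members first, and a fixed set of T cell genes. Outside this rule, and chosen after their values were seen, are Anxa2, Ccna2, Ccnd3, Cdc20, Egr3, Foxm1, Igfbp4, Il10ra, Il12rb1, Il18r1, Il6ra, Klf3, Mcl1, Mcm2, Mcm7, Ncapg, Ndc80, Nt5e, Oasl2, Pcna, Plek, Tec, Tob1, Top2a, Ube2c, Cd163, Prg2, Igkv8-30 and further members of the other-cell lists; the 12 genes of opposite direction are given in full. The comparison, the members and the lists were chosen with earlier results of these data known.

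Arrays with the same replicate number deviated together over all tested genes (r = 0.334, 0.128 and 0.316 for the 3 pairs of groups), and less over autosomal genes (0.184, -0.054 and -0.012). Replicate numbers 1 and 2 differ in sex-linked genes in every duplicated group. The main fit did not pair the arrays. The replicate block was an alternative setting, and it is given where it ended the call of a named gene. Of 24 called genes named by the rule with several probe sets, 23 had the same sign on all of them, and Bub1 did not. Genes outside the rule, such as Anxa2 and Cdc20, are not in this count. The same sign did not mean the same size. Over a gene's probe sets the difference ran from -1.49 to -0.23 for Nr4a2, -3.72 to -0.90 for Hacd1 and -2.06 to -0.73 for Id2. For Kif11 it ran from 1.08 to 3.50 and for Tpx2 from 1.29 to 3.67. Others were close, such as Egr2 (-1.61 to -1.55) and E2f2 (3.11 to 3.17). Some list members were not analysed here. Array values carry no depth.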

Additional observations from a re-analysis of the deposited data

Results flagged for a closer look

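In 12 genes Rag cells and antigen-divided cells differed from naive cells in opposite directions, with each difference called by limma. The direct difference of Rag from an antigen-divided group adds both differences, so its call follows from this choice and it is given as a size. Of these, 5 were lower in Rag and higher in both antigen-divided groups than in naive cells. The Rag minus OCS/LPS differences were -3.52 for Ikzf2 (Helios), -4.20 for Izumo1r (folate receptor 4), -2.97 for Cd9, a tetraspanin, -2.06 for Nr4a2 and -1.85 for Dusp22, a phosphatase. The other 7 were higher in Rag and lower in both antigen-divided groups. There the Rag minus OCS/LPS differences were 6.52 for 5830411N06Rik, 2.59 for Etfbkmt, 2.51 for Slpi, a secreted protease inhibitor, 2.49 for Tec, 2.41 for Tent5c, 2.25 for B430306N03Rik and 1.81 for Plcxd2. B430306N03Rik passed the filter only through the Rag array (5.06, with at most 3.75 elsewhere), so its call is no support.

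Slpi read 5.22 and 5.36 in naive cells, 7.35 in Rag cells and 4.72 to 4.85 in antigen-divided cells. Cd9 read 6.80 and 6.83, then 4.99 and 7.71 to 8.20. Time after transfer and host differ with the group in each of these, as does tissue for RIP-OVAhi, and their parts cannot be told apart. The call against naive cells was lost without any 1 RIP-OVAhi or OCS/LPS array for Dusp22, Etfbkmt, Tent5c, B430306N03Rik, Plcxd2 and Tec, without either RIP-OVAhi array for Cd9 and Ikzf2, and without either OCS/LPS array for Nr4a2. The replicate block ended it for Dusp22, Tent5c, Plcxd2, Tec and Nr4a2, and leaving out naive replicate 2 for Tent5c, Cd9 and Nr4a2.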

How the results depend on the processing

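No alternative turned the direction of a called gene named by the rule or, of the others, of those whose alternatives were computed (such as Anxa2, Top2a, Plek and Tec). For most alternatives this was fixed in advance. A filter, the variance trend or leaving out an antigen-divided array does not change a difference of Rag and naive means. With every probe set as a feature, a gene was still followed on the same probe set. Leaving out a naive array cannot turn a difference where Rag lay outside both naive values. Counts of calls were less firm. Each array centred on its median gave 93 falls against 50. With no filter on dim genes 376 genes were lower than both antigen-divided groups, and with every probe set as a feature 563 were higher. The 3 compared arrays alone gave 0 rises and 0 falls, with 1 residual degree of freedom. Leaving out 1 array at a time gave between 69 and 930 rises and between 17 and 727 falls over naive cells, and between 94 and 800 genes above and 183 and 1130 below both antigen-divided groups. The lowest came without an antigen-divided array and the highest without a naive array. The Rag array could not be left out. With the replicate block the counts were 161 rises and 37 falls, and 253 and 462 against the antigen-divided groups; among the genes named by the rule it ended the calls of Clec2d, Ier2, Nab2, Nr4a2, Nr4a3 and Oas3. With no filter 195 rises and 70 falls were called, but 97 and 29 of these were among the 191 and 50, and 34 of 85 called genes followed over the alternatives lost the call; the cause was not tested. Each of the 34 was also lost without at least 1 antigen-divided array. The stricter filters, the mean of probe sets, every probe set as a feature and the variance trend gave rises between 166 and 217 and falls between 48 and 70. Taking the mean of a gene's probe sets ended the calls of Irf8, Anxa2, Cdc20, Etfbkmt, Tent5c and Plcxd2. Genes near log2 5 have the least signal over background.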
